A study of Rattus norvegicus with 6 samples.

Results

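A set of 10 genes that carry, transmit or report Wnt, R-spondin, hepatocyte growth factor (HGF) and FGF1 signals was followed in primary rat liver sinusoidal endothelial cells, which line the hepatic sinusoids and carry open pores. The 10 were a fixed list of symbols, and each matched 1 of the 32623 genes in the files. Cells of Han Wistar rats were held for 48 h in a perfused device under a pressure of 12 mmHg, called pathological, or 1 mmHg, called physiological, with 3 libraries each. Both groups received the same shear stress of 1.15 dyn/cm2 and shared the device with hepatocytes, stellate cells and macrophages. The labels name no animal or culture for any library, and p-values therefore measure only the spread between these libraries, which may be technical. Neither age nor sex of the rats is stated.

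In the liver, endothelial cells around the central vein release Wnt2, Wnt9b and R-spondin 3. Secreted Wnt proteins leave the cell with the carrier Wntless, bind a Frizzled receptor with an LRP co-receptor and stabilise beta-catenin, while R-spondins keep Frizzled receptors at the surface. Together these signals set the enzyme programme of the hepatocytes nearest the central vein. HGF, made by stellate and endothelial cells, acts through the receptor MET and drives hepatocyte growth after injury, and FGF1 is a growth factor that binds all FGF receptors.

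Levels are given as CPM, a gene's count relative to the library's TMM-scaled total. Of the 10 genes, Rspo3, Wls and Fgf1 lay lower in every library at 12 mmHg than in any library at 1 mmHg, and none of the 10 did the reverse. None of the 9 genes that passed the filter on low counts passed the threshold of the edgeR test, a Benjamini-Hochberg adjusted p under 0.05. Over all 12742 genes tested, 0 passed (0%), with 33 at an unadjusted p under 0.05 (0.259%), 26 of them lower at 12 mmHg (0.204%), Fgf1 included. DESeq2 called 45 of 14772 genes (0.305%), 35 of them lower at 12 mmHg (0.237%), and Fgf1 was the 1 member among them. Fgf1 was at 0 in all 12 mmHg libraries and passed the filter only through the 1 mmHg libraries, so it had to differ, and its p-values and call are descriptions and no support for the group. Ranges did not overlap for 4.6% of all genes tested, with the 12 mmHg libraries lower for 3.05% and higher for 1.55%. The lowest value an exact permutation test of 3 against 3 libraries can give is p = 0.1, two-sided. It was reached by Rspo3, Wls and Fgf1 among the 10 genes tested this way, with no adjustment.

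The libraries differed in ways that the pressure does not explain. Totals ran from 11426299 to 23754767 counts at 12 mmHg and from 8925149 to 24025406 at 1 mmHg. Genes with any count numbered 16797, 13746 and 10261 in pathological replicates 1, 2 and 3, and 17230, 12861 and 10674 in physiological replicates 1, 2 and 3. The 18 hepatocyte markers, led by albumin, summed to 348, 752 and 65700 CPM at 12 mmHg, and to 220, 45800 and 38800 CPM at 1 mmHg. A total of 1 library at 12 mmHg and 2 at 1 mmHg were thus rich in hepatocyte RNA, meaning over 10000 CPM of these markers. The 9 matched endothelial markers were above 0 in every library, with sums between 816 and 2380 CPM at 12 mmHg and between 1290 and 2790 CPM at 1 mmHg. Markers of sinusoidal cells, 11 in all, were detected in every library too, and summed to 858, 544 and 7140 CPM at 12 mmHg, against 1510, 6180 and 4990 CPM at 1 mmHg. Single markers among them were uneven. Clec4g stood at 0.534, 5.06 and 91.5 CPM at 12 mmHg, against 1.64, 181 and 79.4 CPM at 1 mmHg. Mrc1 stood at 399, 37.7 and 238 CPM at 12 mmHg, against 414, 182 and 177 CPM at 1 mmHg. The 16 stellate markers ran from 459 to 2300 CPM at 12 mmHg and from 569 to 1830 CPM at 1 mmHg. Of these sums, Reln alone made up 424 and 434 CPM in pathological replicates 1 and 2 and 516 CPM in physiological replicate 1. In pathological replicate 3 Reln gave 0.942 CPM. The 12 macrophage markers ran from 44.2 to 1310 CPM at 12 mmHg and from 629 to 1200 CPM at 1 mmHg. Lymphocyte markers summed to at most 48.9 CPM at 12 mmHg and 28.4 CPM at 1 mmHg, and cholangiocyte markers to at most 20.6 CPM at 12 mmHg and 91.5 CPM at 1 mmHg. In such bulk samples, fewer cells of a type and less RNA per cell cannot be told apart.

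**Figure D1:**
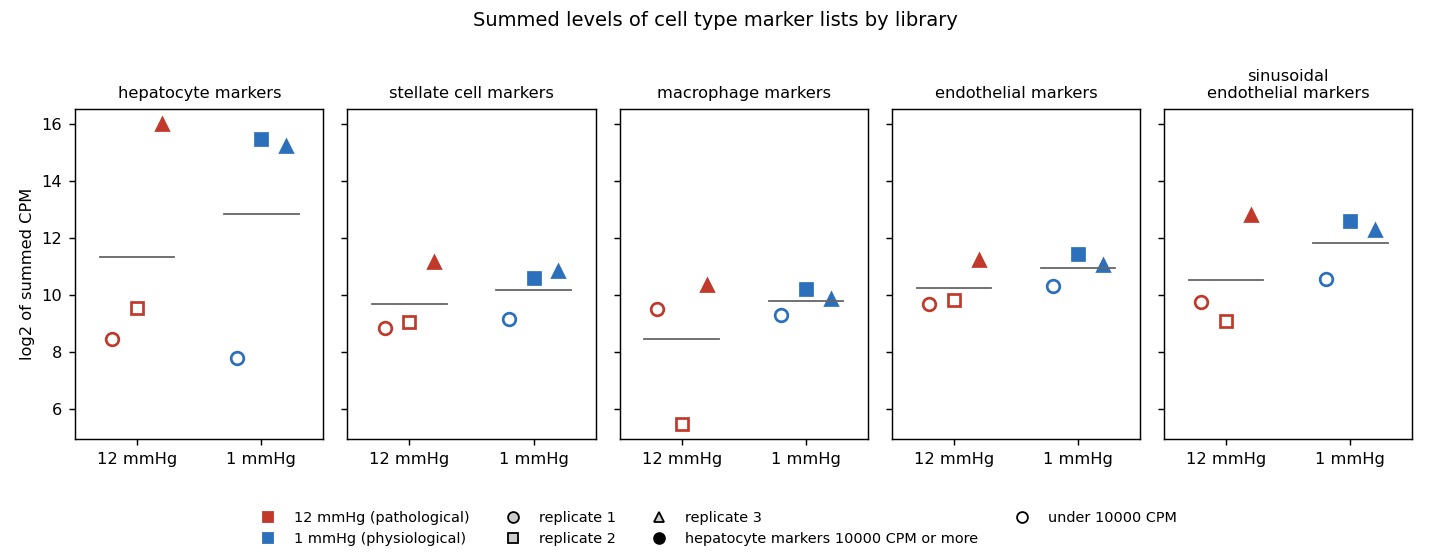
Summed CPM of 5 marker lists in each library, on a log2 axis, with the 12 mmHg libraries left of the 1 mmHg libraries; bars are means of the log2 values (n = 3 each). Hepatocyte markers stand at 65700 CPM in pathological replicate 3 and at 348 and 752 CPM in the other 12 mmHg libraries, and the sinusoidal markers are high in the same libraries. In the libraries poor in hepatocyte RNA, most of the stellate sum comes from Reln.

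The windows of 250 bases upstream of the start of 4 genes are shown because 3 of them (Rspo3, Wls and Fgf1) separated the pressures and the other, Wnt2, is the main Wnt ligand of sinusoidal cells. They come from RefSeq on the GRCr8 build, and 8 of the 10 genes matched that table (Lrp5 and Lrp6 did not). A set of 4 motifs was searched on both strands, namely GATAA for GATA factors, CTTTGA for TCF and LEF factors, GGAATG for TEAD factors and CACACCC for Kruppel-like factors, and these motifs share no match in the windows shown. Capitals mark GATAA, read as TTATC on the other strand.
Wnt2 (chr4:47340285-47340534, minus strand): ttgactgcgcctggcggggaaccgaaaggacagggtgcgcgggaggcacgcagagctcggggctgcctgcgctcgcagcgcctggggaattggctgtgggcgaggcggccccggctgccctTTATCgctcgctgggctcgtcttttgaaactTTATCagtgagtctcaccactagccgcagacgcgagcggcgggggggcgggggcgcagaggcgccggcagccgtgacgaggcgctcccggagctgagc
Rspo3 (chr1:30112279-30112528, plus strand): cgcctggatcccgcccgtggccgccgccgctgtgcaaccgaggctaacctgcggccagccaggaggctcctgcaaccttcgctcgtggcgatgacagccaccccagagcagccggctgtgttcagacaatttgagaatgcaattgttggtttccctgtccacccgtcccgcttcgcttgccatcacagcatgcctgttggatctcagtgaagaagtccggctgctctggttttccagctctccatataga
Wls (chr2:251590403-251590652, plus strand): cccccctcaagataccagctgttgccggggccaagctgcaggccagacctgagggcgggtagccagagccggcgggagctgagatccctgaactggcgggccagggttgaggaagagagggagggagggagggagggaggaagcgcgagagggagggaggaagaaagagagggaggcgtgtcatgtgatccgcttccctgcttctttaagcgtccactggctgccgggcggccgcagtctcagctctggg
Fgf1 (chr18:30961394-30961643, minus strand): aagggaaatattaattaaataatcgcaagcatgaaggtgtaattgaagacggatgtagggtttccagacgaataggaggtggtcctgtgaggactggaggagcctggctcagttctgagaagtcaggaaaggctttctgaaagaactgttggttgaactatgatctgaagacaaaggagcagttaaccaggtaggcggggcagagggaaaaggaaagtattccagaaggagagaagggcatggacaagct
Wnt2 held GATAA at 2 places, which begin 129 and 98 bases before the start, and 23.5% of 33469 windows of this length hold it at least once. None of the 4 motifs was found in the windows of Rspo3, Wls or Fgf1, nor in those of Wnt9b or Hgf, which are not shown. The Fzd4 window, also not shown, held CACACCC at 1 place, beginning 114 bases before the start. Of all windows, 6.12% hold that motif. GC content was 70.4% for Wnt2, 60.4% for Rspo3, 66% for Wls and 46% for Fgf1, against a median of 51.2% over all windows. A match is a run of letters and was not tested as a binding site.

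Among the ligands, Wnt2 (ENSRNOG00000051905) was detected in every library. It stood at 3.77, 3.5 and 10.5 CPM in pathological replicates 1, 2 and 3, against 4.42, 13.4 and 25.1 CPM in physiological replicates 1, 2 and 3. The groups overlapped, since pathological replicate 3 lay above physiological replicate 1. Wnt2 averaged 5.91 ± 3.94 CPM at 12 mmHg and 14.3 ± 10.4 CPM at 1 mmHg (SD, n = 3 each). The edgeR fit gave a log2 fold change of -1.27, with a 95% interval of -4.85 to 2.30 (edgeR unadjusted p = 0.435, adjusted p = 1). It was -1.97 without pathological replicate 3 and -0.59 without physiological replicate 3. Relative to 1000 CPM of summed endothelial markers, Wnt2 was 4.63, 3.81 and 4.4 CPM at 12 mmHg, against 3.43, 4.79 and 11.7 CPM at 1 mmHg. On that scale 5 of the 6 libraries lay between 3.43 and 4.79, and physiological replicate 3 stood above them. This scale depends on the markers summed. Of the 9, 5 were higher in every library rich in hepatocyte RNA than in any poor one, and 4 were not. Cdh5, not among those 5, ranged only from 183 to 319 CPM over all libraries. Both the 3 libraries poor in hepatocyte RNA and the 3 rich in it had Wnt2 lower at 12 mmHg, with 3.77 and 3.5 against 4.42 CPM in the first and 10.5 against 13.4 and 25.1 CPM in the second. Gata4, a factor that specifies sinusoidal endothelium in mice and binds GATA motifs, stood at 190, 259 and 306 CPM at 12 mmHg and at 154, 272 and 179 CPM at 1 mmHg, with overlapping groups.

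Wnt9b (ENSRNOG00000003807), the other central vein Wnt ligand, was barely read and did not pass the filter on low counts. It had 0, 0 and 1 counts at 12 mmHg, against 3, 89 and 0 counts at 1 mmHg. Nearly all counts thus lay in physiological replicate 2. Pooled over each group the ratio of 1 mmHg to 12 mmHg was 100-fold with a counting interval of 17.5 to 4000, which covers counting error only and rests on that library.

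Rspo3 (ENSRNOG00000011568), the R-spondin of central vein endothelium, lay lower at 12 mmHg without overlap. It stood at 4.02, 0.0473 and 0.282 CPM in pathological replicates 1, 2 and 3, against 6.06, 16.9 and 36.5 CPM in physiological replicates 1, 2 and 3. Pathological replicates 2 and 3 held 1 and 3 counts, while pathological replicate 1, with 113 counts, came close to physiological replicate 1, with 185 counts. Rspo3 averaged 1.45 ± 2.23 CPM at 12 mmHg and 19.8 ± 15.4 CPM at 1 mmHg (SD, n = 3 each). The log2 fold change was -3.76 (95% CI -8.54 to 1.03, unadjusted p = 0.108, edgeR adjusted p = 1; exact permutation p = 0.1). Rspo3 passed the filter on low counts through the 1 mmHg libraries, where it was high, so these p-values are descriptions. With any 1 library left out the log2 fold change ran between -6.89 and -2.97. Its sign could not turn, because the groups did not overlap. Without both libraries of under 11000 detected genes, an alternative chosen after seeing the data, it was -2.49. Per 1000 CPM of endothelial markers, Rspo3 was 4.93, 0.0515 and 0.119 CPM at 12 mmHg, against 4.7, 6.07 and 17 CPM at 1 mmHg. On that scale pathological replicate 1 lay above physiological replicate 1, so the ranges overlapped.

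Wls (ENSRNOG00000036816), which encodes the carrier Wntless, was 38.1, 20.4 and 0 CPM in pathological replicates 1, 2 and 3, against 42.5, 48.5 and 62.4 CPM in physiological replicates 1, 2 and 3. The gap between the pressures was narrow in pathological replicate 1 and complete in pathological replicate 3, where 0 counts allow a level of up to 0.282 CPM (3 counts, counting error only). Wls averaged 19.5 ± 19.1 CPM at 12 mmHg and 51.1 ± 10.2 CPM at 1 mmHg (SD, n = 3 each), and its log2 fold change was -1.39 (95% CI -5.28 to 2.49, unadjusted p = 0.433, edgeR adjusted p = 1). It was -2.33 without pathological replicate 1 and -0.81 without pathological replicate 3. Other well read genes were absent from that library as well. Of 4444 genes with at least 10 CPM in each of the other 5 libraries, 179 (4.03%) were at 0 in pathological replicate 3, Wls among them. The same count was 69 of 4221 genes (1.63%) in physiological replicate 3, at most 7 in each replicate 2 and 0 in each replicate 1. Without both replicate 3 libraries the log2 fold change of Wls was -0.64, in the same alternative chosen after seeing the data. Per 1000 CPM of endothelial markers Wls was 46.7, 22.2 and 0 CPM at 12 mmHg, against 33, 17.4 and 29 CPM at 1 mmHg, with pathological replicate 1 the highest of all.

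**Figure D2:**
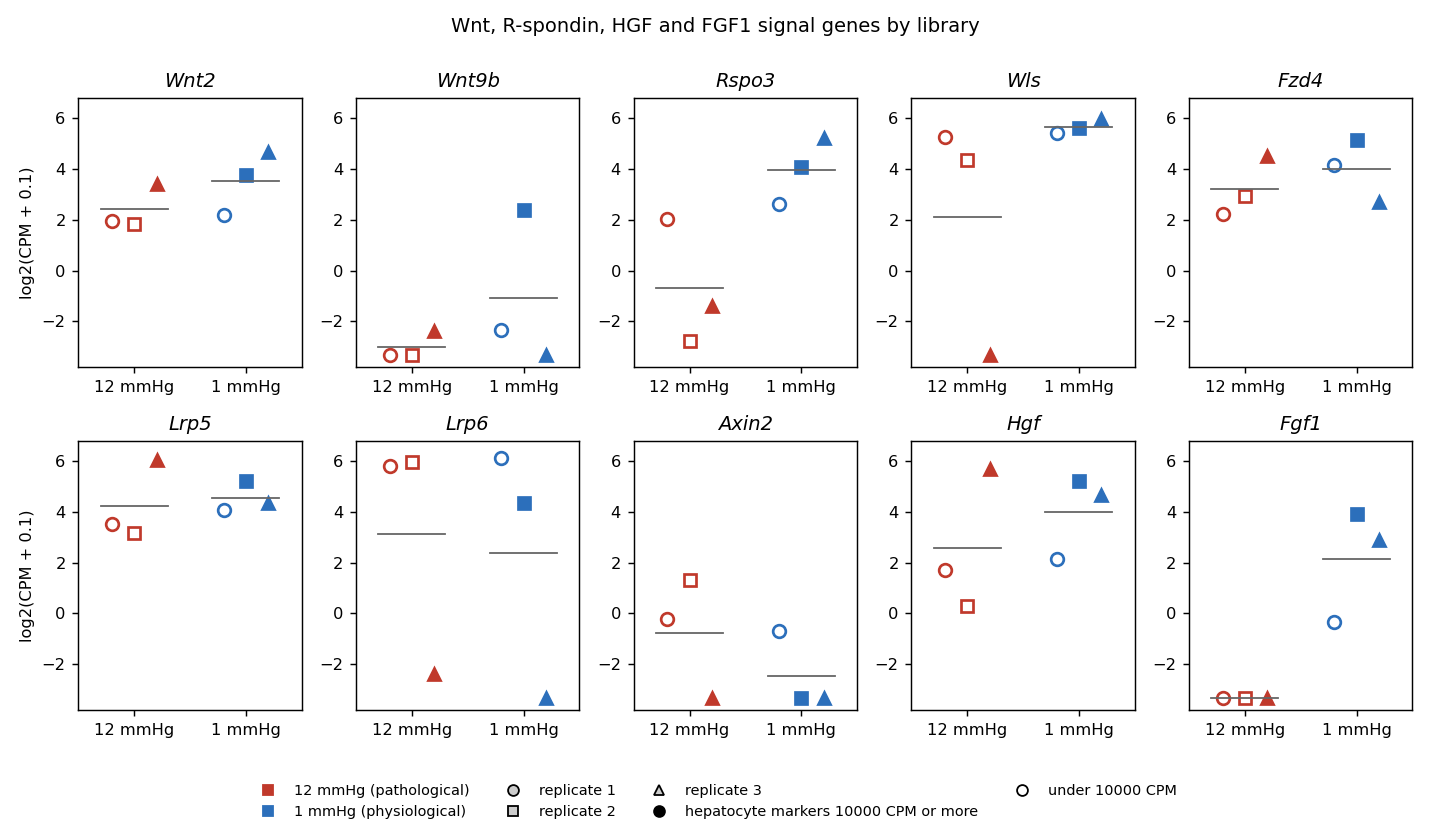
Level of each of the 10 genes in every library as log2(CPM + 0.1), with 12 mmHg left of 1 mmHg; bars are means of the log2 values (n = 3 each) and filled symbols mark libraries rich in hepatocyte RNA. Rspo3, Wls and Fgf1 do not overlap between the pressures, and filled and open symbols do not overlap for Wnt2, Lrp5, Lrp6, Axin2 and Hgf. The share of all genes that separate rich from poor libraries was not counted.

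**Figure D3:**
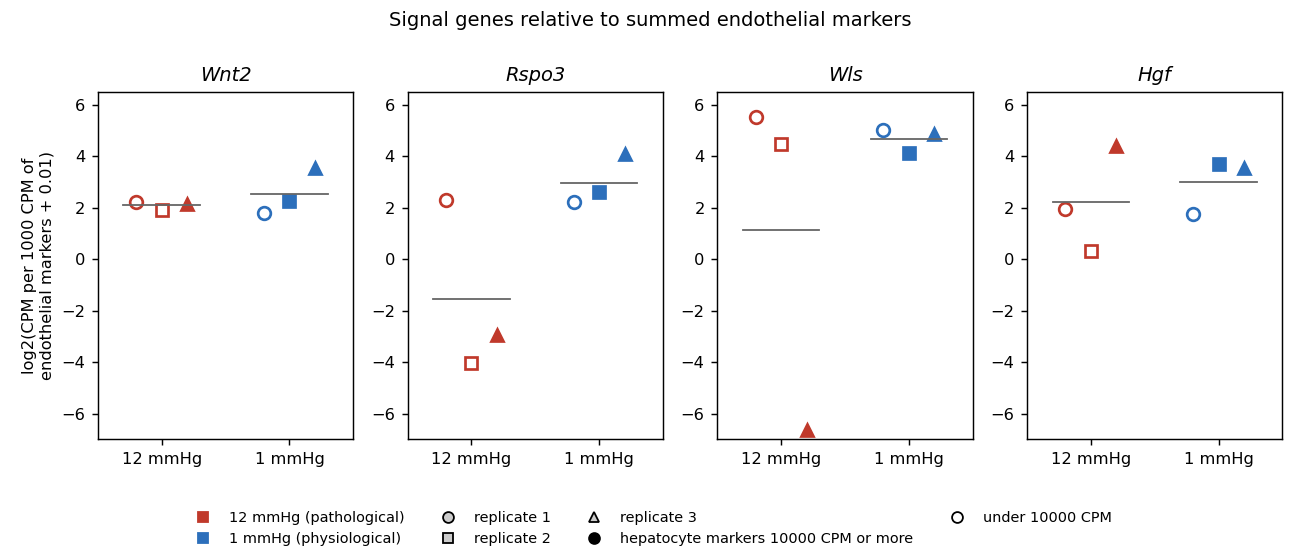
Wnt2, Rspo3, Wls and Hgf relative to 1000 CPM of summed endothelial markers, on a log2 axis with 0.01 added, with 12 mmHg left of 1 mmHg; bars are means of the log2 values (n = 3 each). Wnt2 lies between 3.43 and 4.79 in 5 of 6 libraries, and the pressures overlap for each of the 4 genes. The summed markers were themselves higher in every library rich in hepatocyte RNA than in any poor one.

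The receptors showed no common direction. Fzd4 (ENSRNOG00000016848), the Frizzled receptor of endothelial Wnt and Norrin signalling, was 4.63, 7.52 and 22.5 CPM at 12 mmHg, against 17.6, 34.8 and 6.38 CPM at 1 mmHg. Pathological replicate 3 lay above physiological replicates 1 and 3, so the groups overlapped, and the log2 fold change was -0.77 (95% CI -3.86 to 2.33, edgeR adjusted p = 1). It was -1.69 without pathological replicate 3 and -0.09 without physiological replicate 2. Lrp5 (ENSRNOG00000015911), an LRP co-receptor, was 11.4, 8.84 and 65.4 CPM at 12 mmHg, against 16.7, 37.3 and 20.4 CPM at 1 mmHg. Here the highest library and the 2 lowest all belonged to 12 mmHg. Its log2 fold change was 0.21 (95% CI -2.43 to 2.84, edgeR adjusted p = 1) and turned to -1.29 without pathological replicate 3.

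Lrp6 (ENSRNOG00000006338), the paralogous co-receptor, was 56, 61.9 and 0.0942 CPM in pathological replicates 1, 2 and 3, against 69, 20.3 and 0 CPM in physiological replicates 1, 2 and 3. High and near-absent libraries occurred at both pressures. Counts were 1572, 1308 and 1 at 12 mmHg, against 2107, 353 and 0 at 1 mmHg. Of 5414 genes with at least 10 CPM in the other 4 libraries, 155 (2.86%) had at most 1 count in both replicate 3 libraries, as Lrp6 did. Its log2 fold change was 0.40 (95% CI -4.53 to 5.32, edgeR adjusted p = 1), and it was -0.20 in the libraries poor in hepatocyte RNA, where the levels were 56 and 61.9 CPM at 12 mmHg and 69 CPM at 1 mmHg.

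Axin2 (ENSRNOG00000055010), a direct target and feedback inhibitor of Wnt signalling that is used as its readout, was low in all libraries. It had 21, 50 and 0 counts at 12 mmHg, against 16, 0 and 0 counts at 1 mmHg, or 0.748, 2.36 and 0 CPM at 12 mmHg against 0.524, 0 and 0 CPM at 1 mmHg. All counts lay in the 3 libraries poor in hepatocyte RNA, and the 3 rich ones allow up to 0.282 CPM at 12 mmHg and up to 0.173 and 0.426 CPM at 1 mmHg. The log2 fold change was 2.46 (95% CI -3.22 to 8.14, unadjusted p = 0.348, edgeR adjusted p = 1), opposite in sign to those of Wnt2 and Rspo3. Leaving out pathological replicate 2 gave 1.03. Leaving out physiological replicate 1 gave a fitted 7.16, which depends on the prior count since 0 counts then remain at 1 mmHg. The promoter window of Axin2 is shown because it held the TCF and LEF motif CTTTGA (in capitals) at 2 places, beginning 232 and 132 bases before the start, where 13.9% of windows hold it.
Axin2 (chr10:94398535-94398784, plus strand): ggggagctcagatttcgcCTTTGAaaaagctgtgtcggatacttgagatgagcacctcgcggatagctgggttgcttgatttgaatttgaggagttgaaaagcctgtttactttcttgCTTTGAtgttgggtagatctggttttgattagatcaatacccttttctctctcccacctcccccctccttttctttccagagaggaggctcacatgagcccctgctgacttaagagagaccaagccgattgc

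Hgf (ENSRNOG00000007027) varied widely within each pressure. It was 3.13, 1.14 and 51.1 CPM in pathological replicates 1, 2 and 3, against 4.32, 36.7 and 25.4 CPM in physiological replicates 1, 2 and 3. Both the highest and the lowest library belonged to 12 mmHg. Hgf averaged 18.5 ± 28.3 CPM at 12 mmHg and 22.2 ± 16.4 CPM at 1 mmHg (SD, n = 3 each). The log2 fold change was -0.26 (95% CI -3.98 to 3.46, unadjusted p = 0.875, edgeR adjusted p = 1). In the libraries poor in hepatocyte RNA Hgf was lower at 12 mmHg (3.13 and 1.14 CPM, against 4.32 CPM), and in the rich ones it was higher (51.1 CPM, against 36.7 and 25.4 CPM). Of the 16 stellate markers, 10 were likewise higher in every library rich in hepatocyte RNA than in any poor one, among them Lrat, which esterifies retinol, at 2.24, 8.23 and 917 CPM at 12 mmHg and at 1.11, 602 and 657 CPM at 1 mmHg. Reln ran the other way, 4 were mixed and Lum was at 0 throughout. The stellate markers Pdgfrb and Acta2 were at 0 in pathological replicate 3, where Hgf was highest. Also higher in every rich library were 7 of 11 sinusoidal, 5 of 9 endothelial and 6 of 12 macrophage markers. All 18 hepatocyte markers were too, but their sum defines the rich libraries. The same share over all genes was not counted. The part of other cells' RNA in the Hgf values was not tested.

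Fgf1 (ENSRNOG00000013867) was listed at 0 counts in all 3 libraries at 12 mmHg, against 21, 257 and 52 counts in physiological replicates 1, 2 and 3. These counts correspond to 0.688, 14.8 and 7.38 CPM at 1 mmHg, while the floors of 3 counts at 12 mmHg were 0.107, 0.142 and 0.282 CPM. The unadjusted edgeR p was 0.0188 (edgeR adjusted p = 1), and the DESeq2 adjusted p of 0.00864 became 0.138 without physiological replicate 2. With any other library left out the DESeq2 adjusted p stayed between 0.00183 and 0.0493. Of the 45 genes that DESeq2 called, 34 were at 0 in every library of 1 pressure, as Fgf1 was. In the libraries poor in hepatocyte RNA the contrast rested on the 21 counts of physiological replicate 1.

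**Figure D4:**
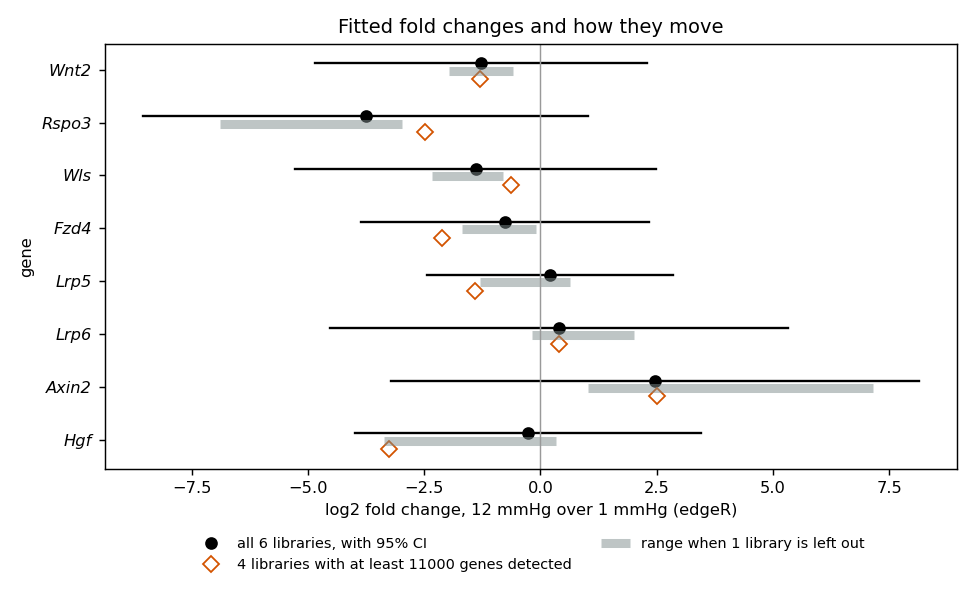
Log2 fold change of 12 mmHg over 1 mmHg for 8 genes from the edgeR fit, with 95% confidence intervals (black), the range when 1 library is left out (grey) and the value from the 4 libraries with at least 11000 detected genes (diamonds). Every interval crosses 0, and the grey range crosses 0 for Lrp5, Lrp6 and Hgf.

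Genes whose levels over the 6 libraries were most like those of 3 members are given as a description, by Pearson's r of log2(CPM + 1), and share library depth and hepatocyte content with them. Those most like Wnt2 were Sh3bp1, Mrpl40 and Rn60_15_0617.2, with r between 0.995 and 0.997, and 629 genes had r above 0.9. Rspo3 was matched best by Lrrc20, LOC103692531 and Lyplal1 (0.993 to 0.997), each at 0 in pathological replicates 2 and 3, with 179 genes above 0.9. Hgf was matched best by Fbn1, Dpp4 and Ntpcr (0.998 to 0.999), with 1234 genes above 0.9. Fbn1, the matrix protein fibrillin-1, stood at 3.67, 1.23 and 45.6 CPM at 12 mmHg and at 4.62, 32.9 and 23.3 CPM at 1 mmHg.

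The rest of the Wnt, HGF and FGF pathways gave no called gene. Of 113 further genes on 12 lists, 63 passed the filter, 37 with a log2 fold change above 0 and 26 below, and 0 passed the edgeR threshold in either direction. Their median log2 fold change was 0.28, against 0.05 over all genes tested. The Frizzled receptor gene Fzd6 was the 1 among them whose groups did not overlap, at 8.55, 2.79 and 0.471 CPM at 12 mmHg, against 17.8, 12.8 and 34.2 CPM at 1 mmHg. Over all genes tested the share without overlap was 4.6%, and 3.05% with 12 mmHg lower, so a count of 1 in 63 is no result about these genes.

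Of 17 other Wnt ligands, 9 had no count in any library and 2 passed the filter. Wnt4 was 0.499, 0.946 and 0.659 CPM at 12 mmHg, against 0.131, 15 and 0.567 CPM at 1 mmHg, with a single high library. Wnt11, a ligand of beta-catenin-independent signalling, was 1.5, 6.15 and 0 CPM at 12 mmHg, against 1.08, 0 and 0 CPM at 1 mmHg. Porcn, the acyltransferase that Wnt ligands need for release, was 4.91, 1.89 and 0.0942 CPM at 12 mmHg, against 4.62, 13.4 and 28.9 CPM at 1 mmHg. Its log2 fold change was -2.76 (edgeR adjusted p = 1), with pathological replicate 1 just above physiological replicate 1. Rspo1 was 0.57, 1.84 and 25.6 CPM at 12 mmHg, against 0.0983, 37.1 and 21.4 CPM at 1 mmHg, high in the libraries rich in hepatocyte RNA at both pressures. Lgr4, an R-spondin receptor, was 5.63, 5.3 and 0 CPM at 12 mmHg, against 10, 1.15 and 0 CPM at 1 mmHg. Its relative Lgr5 and the ubiquitin ligase Rnf43, which removes Frizzled receptors, did not pass the filter, with at most 0.819 CPM in any library.

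Of 13 other receptor genes 9 were tested, 6 above 0 and 3 below, with a median of 1.07. Tspan12, the tetraspanin that enhances Norrin signalling through Fzd4, was 10.3, 0.709 and 81.7 CPM at 12 mmHg, against 23.5, 89.1 and 157 CPM at 1 mmHg. Ryk, a Wnt receptor tyrosine kinase-like protein, was 38.1, 31.8 and 81.5 CPM at 12 mmHg, against 38.7, 18.3 and 57.3 CPM at 1 mmHg. Extracellular inhibitors were tested for 4 of 15 genes, 2 in each direction. Wif1, which binds Wnt proteins, was 8.4, 16.6 and 11.8 CPM at 12 mmHg, against 6.22, 11.1 and 0 CPM at 1 mmHg, with overlap. The inhibitor Kremen1 averaged 5.28 ± 4.83 CPM at 12 mmHg and 10.7 ± 11.4 CPM at 1 mmHg, and Dkk4 averaged 1.92 ± 1.94 CPM at 12 mmHg and 3.28 ± 3.79 CPM at 1 mmHg (SD, n = 3 each).

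Inside the cell all 15 genes of the list were tested, 8 above 0 and 7 below, with a median of 0.26. Ctnnb1, which encodes beta-catenin, was 284, 316 and 115 CPM at 12 mmHg, against 355, 135 and 99.9 CPM at 1 mmHg. Its log2 fold change was 0.28, with an upper confidence limit of 1.94. The beta-catenin scaffold Apc was 184, 108 and 0.188 CPM at 12 mmHg, against 219, 23 and 0.851 CPM at 1 mmHg, near absent in both replicate 3 libraries like Lrp6. The casein kinase Csnk1a1 averaged 141 ± 36.5 CPM at 12 mmHg and 95.2 ± 49.6 CPM at 1 mmHg (SD, n = 3 each).

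Wnt targets split as well, with 4 of 6 tested feedback genes above 0 and 2 below. Nkd1, a feedback inhibitor, was 10.9, 17.8 and 62.7 CPM at 12 mmHg, against 10.3, 25.9 and 21.3 CPM at 1 mmHg. Its relative Nkd2 averaged 17.6 ± 18.1 CPM at 12 mmHg and 17.2 ± 25 CPM at 1 mmHg, and Bambi, a decoy receptor of TGF-beta signalling, averaged 13.3 ± 8.8 CPM at 12 mmHg and 8.35 ± 8.07 CPM at 1 mmHg (SD, n = 3 each). Among hepatocyte genes that Wnt signals maintain around the central vein, 3 of 7 tested lay above 0 and 4 below, with a median of -0.21. Glul, the glutamine synthetase of these hepatocytes, was 362, 235 and 586 CPM at 12 mmHg, against 338, 317 and 315 CPM at 1 mmHg. At 1 mmHg it was thus nearly equal in libraries poor and rich in hepatocyte RNA. Oat, an ornithine-converting enzyme of the same zone, was 50.1, 32.1 and 102 CPM at 12 mmHg, against 47.9, 49.2 and 117 CPM at 1 mmHg. Cyp2e1, a cytochrome P450 of the same zone, was 0.997, 2.98 and 303 CPM at 12 mmHg, against 0.229, 224 and 368 CPM at 1 mmHg, and followed the hepatocyte content. Endothelial genes of the central vein side gave no common direction, with 2 of 3 above 0. The receptor gene Kit was 34.7, 32.6 and 21.8 CPM at 12 mmHg and 118, 8.81 and 13.3 CPM at 1 mmHg, and Thbd (thrombomodulin) was 201, 5.82 and 34.1 CPM at 12 mmHg and 193, 9.73 and 6.38 CPM at 1 mmHg. Cdh13, which encodes T-cadherin, stayed at or under 2.64 CPM in every library. On the portal side 2 of 4 tested genes lay above 0 and 2 below. Msr1, a scavenger receptor, averaged 214 ± 64 CPM at 12 mmHg and 273 ± 118 CPM at 1 mmHg, and the arterial ligand gene Efnb2 averaged 65.5 ± 40.6 CPM at 12 mmHg and 40.8 ± 34.6 CPM at 1 mmHg (SD, n = 3 each). Ltbp4, a matrix protein that binds latent TGF-beta, averaged 17.8 ± 22.7 CPM at 12 mmHg and 13.9 ± 18 CPM at 1 mmHg (SD, n = 3 each).

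On the HGF axis 7 of 9 tested genes lay above 0 and 2 below, with a median of 0.50. Met, the HGF receptor, was 12.5, 8.23 and 0.0942 CPM at 12 mmHg, against 13.9, 0 and 0 CPM at 1 mmHg. The urokinase receptor gene Plaur was 169, 475 and 94.7 CPM at 12 mmHg, against 107, 280 and 218 CPM at 1 mmHg. Plau, the protease urokinase, which can activate the HGF precursor, was 89, 15 and 0.0942 CPM at 12 mmHg, against 33, 14.3 and 0.284 CPM at 1 mmHg. Hpn (hepsin), another activating protease, was 0.677, 0 and 73.8 CPM at 12 mmHg, against 0.197, 62.1 and 52.3 CPM at 1 mmHg, in step with hepatocyte markers.

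Among receptors for FGF1, Fgfr1 was 51.7, 74.3 and 26.6 CPM at 12 mmHg, against 78.8, 25.2 and 0.142 CPM at 1 mmHg. Fgfr2 was 1.25, 0.993 and 96 CPM at 12 mmHg, against 4.36, 62.4 and 105 CPM at 1 mmHg, high in the libraries rich in hepatocyte RNA. Fgf21, a hormone of hepatocytes, was 0.748, 1.23 and 18.4 CPM at 12 mmHg, against 0.852, 4.95 and 2.27 CPM at 1 mmHg. Fgfr4, the main FGF receptor of hepatocytes, was at 0 in all libraries at 12 mmHg and read in physiological replicates 1 and 2 at 0.0655 and 7.14 CPM, too low to be tested. None of the 4 tested genes of this axis passed, with 3 above 0 and 1 below.

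**Figure D5:**
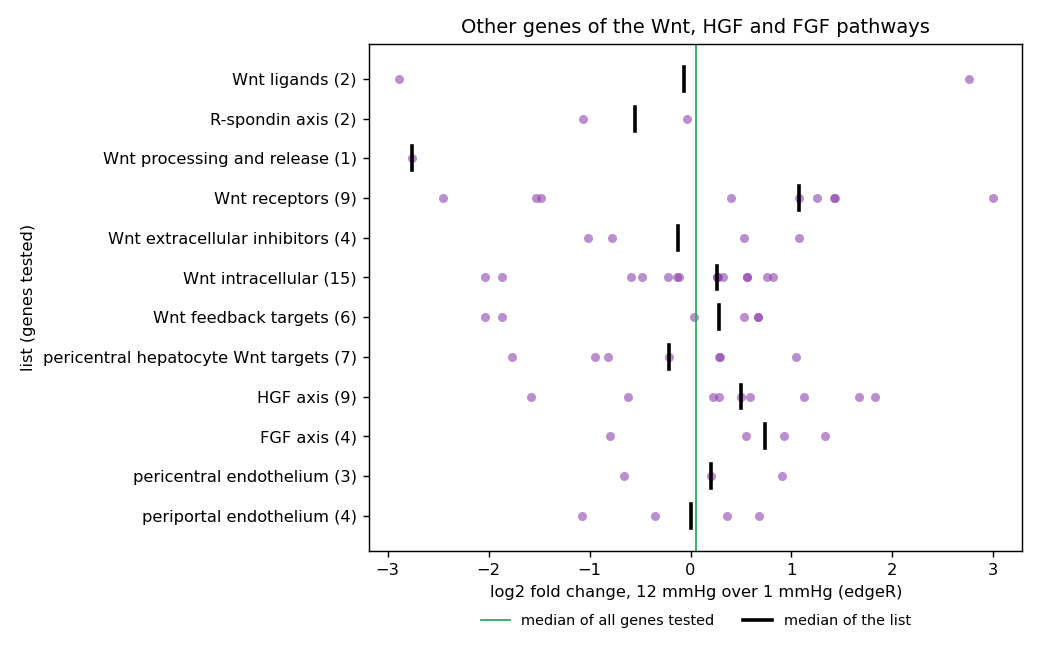
Log2 fold change of 12 mmHg over 1 mmHg (edgeR) for the tested genes of 12 pathway lists other than the 10 members, 1 point a gene, with list medians (black) and the median of all genes tested (green, 0.05). Points fall on both sides of 0 in 10 of the lists, and no gene passed the threshold.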

How the data were processed

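RNA with a poly-A tail was read single-end from 6 libraries, per the labels' protocols. For every library the authors deposited a file of expected counts by gene, which are estimated and not normalized, going by the file headers and values. The tools STAR, RSEM and limma come from the submitters' processing notes. Genome build, gene annotation and strand setting were not given in the sources used here, so antisense and overlapping genes are uncertain. All values were rounded to whole numbers, which altered 4.33% (pathological replicate 3) to 10.4% (physiological replicate 1) of them. The main test was edgeR's quasi-likelihood F-test (version 4.0.16, R version 4.3.3, TMM scaling, filterByExpr, no covariate, Benjamini-Hochberg adjustment over 12742 genes, threshold 0.05, two-sided), whose script was checked on simulated counts of a smaller spread than these libraries have. CPM used TMM-scaled totals. Alternatives were other scalings and filters, DESeq2 1.42.0, limma-voom with limma 3.58.1, a term for hepatocyte markers, fits within libraries under or over 10000 CPM of those markers and leaving out each library. The members and all gene lists were chosen with earlier results of these data known. All members were named, with the 3 genes of highest mean CPM in each pathway list and a few fixed genes. Of the listed symbols 200 matched the files, and Pecam1, Col1a2, Axin1 and Znrf3 did not. RSEM divides reads between similar genes, so paralogs are uncertain. Promoter sequences are RefSeq's (GRCr8), with the first of 2 entries taken for Wls. Lengths of transcripts were not used here, so levels are compared within a gene only.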

Additional observations from a re-analysis of the deposited data

How the results depend on the processing

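No gene passed the edgeR threshold, and 0 passed when a library was left out, when scaling or filter were changed, with a hepatocyte marker term, with limma-voom (159 at an unadjusted p under 0.05), in the libraries poor in hepatocyte RNA or in the 4 libraries of at least 11000 detected genes, chosen after seeing the data. DESeq2 called 45 genes, and the edgeR fit on the 3 libraries rich in hepatocyte RNA, called 155, Wls among them (fitted log2 fold change -12.33). That fit has a single 12 mmHg library, pathological replicate 3, in which 4.03% of well read genes were at 0. Wls had 0 counts in it, so its fitted value depends on the prior count. Most of the genes called there were likewise lower at 12 mmHg. Pressure and library cannot be told apart in that fit, so the call of Wls is no result about pressure. The fit on the poor libraries likewise has a single 1 mmHg library, and both assume that the lone library varies like the others. Over 157 alternative values of the members, 141 kept their direction and side of the threshold. Leaving out libraries could not turn the sign of Rspo3, Wls or Fgf1, whose groups did not overlap. Axin2 had no value in the rich libraries, where it had no counts. The sign of Wnt2, Rspo3, Wls, Axin2 and Fgf1 did not change in any alternative run. It turned for Fzd4 in the rich libraries (0.13), for Lrp5 with limma-voom (-0.67), in the poor libraries (-0.69) and in those 4 libraries (-1.41), for Lrp6 with a hepatocyte marker term (-1.74), in the poor (-0.20) and in the rich libraries (-6.60), and for Hgf in the rich libraries (0.73). With 1 library left out, the values ran from -1.29 to 0.63 for Lrp5, from -0.19 to 2.02 for Lrp6 and from -3.37 to 0.34 for Hgf. The causes were not tested. The median log2 fold change of all genes, 0.05, became 0.15 with RLE scaling, -0.21 with the marker term and -0.35 in the rich libraries. No paired analysis was made, because the replicate numbers used here follow the order of the deposited samples and pair nothing. The labels' own sample numbers were 3, 9 and 23 at 12 mmHg and 2, 11 and 22 at 1 mmHg. Whether neighbouring numbers share an animal or day is not stated. With a biological coefficient of variation of 1.39 and a median standard error of 1.72 on the log2 scale, single-gene intervals were wide. What size of change these libraries could show was not tested.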

Other observations

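Bmp2, another signal that sinusoidal cells send to hepatocytes, lay lower at 12 mmHg without overlap, as did 3.05% of all genes tested. It stood at 44.6, 31 and 32.9 CPM at 12 mmHg, against 94.3, 136 and 67 CPM at 1 mmHg, with an unadjusted p of 0.0642 in the edgeR fit and an edgeR adjusted p of 1. Among the 12 mmHg libraries, Hgf and Cyp2e1 were highest in pathological replicate 3, the only one rich in hepatocyte RNA, and Bmp2 in pathological replicate 1. At 1 mmHg Bmp2 was 94.3 CPM in the library poor in hepatocyte RNA and 136 and 67 CPM in the rich ones. Whether hepatocyte content bears on the Bmp2 values was not tested. The stellate cell receptor gene Pdgfrb stood at 0.499, 0.899 and 0 CPM at 12 mmHg, against 4.36, 18 and 60.9 CPM at 1 mmHg, and also did not overlap, with an edgeR adjusted p of 1. In pathological replicate 3 Pdgfrb was at 0 and Lrat stood at 917 CPM. In that library 4 of the 16 stellate markers and 4.03% of well read genes were at 0. The cause was not tested.

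Reln was the 1 stellate cell marker that was lower in every library rich in hepatocyte RNA than in any poor one, while 10 of 16 were higher. It stood at 424, 434 and 0.942 CPM at 12 mmHg, against 516, 78.5 and 25.7 CPM at 1 mmHg. How many of all genes separate these libraries was not counted.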
